A study of Mus musculus with 6 samples.

Results

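The leukocyte-endothelial adhesion molecules described here were 9 genes chosen by name, out of 22556 genes listed for the mouse pancreas. They were the endothelial selectins Sele and Selp, the endothelial integrin ligands Icam1 and Vcam1, the leukocyte selectin ligand Selplg, and the leukocyte integrin subunits Itgam, Itgal, Itgb2 and Itga4. RNA-sequencing covered whole pancreas of C57BL/6 mice, wild type and 8 weeks old. The methods name male mice. The saline mice received saline alone. The AP mice had acute pancreatitis induced by hourly injections of caerulein (spelled cerulein in the labels), a cholecystokinin analogue that overstimulates acinar cells, and tissue was taken the day after. The pretreated mice received polyI:C, a synthetic double-stranded RNA that activates Toll-like receptor 3, before caerulein; the labels do not give the time between the injections. No group given polyI:C without caerulein was analysed here, so an effect of polyI:C itself and an effect on pancreatitis cannot be told apart. Each group had 2 libraries, all from the same sequencing lane, and the labels do not say whether each came from a different animal, so p-values measure only the spread between these libraries.

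Leukocytes leave the blood in a fixed order of contacts. Endothelial selectins bind sugar-bearing ligands such as the product of Selplg and let leukocytes roll, after which activated leukocyte integrins bind immunoglobulin-type ligands on the endothelium and stop the cell. Itgb2 pairs with Itgal or Itgam to bind the product of Icam1, whereas the product of Itga4 binds that of Vcam1, and in pancreatitis these contacts precede the entry of neutrophils and monocytes into the gland.

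Values were TPM, a relative abundance corrected for gene length, so that levels can be compared between genes. From the spacing of low values, depth was estimated at 3974777 and 3297156 reads in the saline libraries, 6934726 and 8847418 in the AP libraries, and 8821105 and 10852554 in the pretreated libraries. The saline libraries were the shallowest, and 1 read for a gene of median length was worth 0.216 and 0.265 TPM there, against 0.0956 to 0.148 TPM in the other 4 libraries. Low levels in saline mice therefore rested on few reads.

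The pancreas label was checked against acinar markers, of which 5 of 14 were listed. The acinar transcription factor Bhlha15, the most abundant of them in saline mice, stood at 391 and 326 TPM in the saline libraries, 53.6 and 46.4 TPM in the AP libraries, and 161 and 171 TPM in the pretreated libraries. Nr5a2 (107 and 105 TPM) was the highest in the AP libraries and Rbpjl (196 and 191 TPM) in the pretreated libraries. Common digestive enzyme markers such as Cpa1, Ctrb1 and Prss2 were not analysed here. In bulk tissue, fewer cells of a type and less RNA per cell cannot be told apart, and this holds for every level below.

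The summed level of the 9 adhesion molecules was 25.1 and 15.1 TPM in the saline libraries, 83.2 and 92.0 TPM in the AP libraries, and 39.5 and 37.3 TPM in the pretreated libraries. Itgb2 was the most abundant of them in each group. In saline mice, its range over the 2 libraries lay above that of Vcam1, whereas the neighbours from Vcam1 through Itga4, Itgal, Icam1, Selplg and Itgam to Selp, in falling order of their means, were not separated, and Sele was listed at 0. In AP mice, the order was Itgb2, Icam1, Vcam1, Itgam, Itga4, Itgal, Selplg, Selp and Sele, and the only neighbours whose ranges overlapped were Itgal and Selplg. In pretreated mice, Itgb2 and Icam1 overlapped at the top, Itgal overlapped with Vcam1 and Selplg with Itga4, and Itgam, Selp and Sele followed, each separated from the next. Itgal stood at rank 6 in AP mice and rank 3 in pretreated mice, and Itgam at rank 4 and rank 7. The place of Itgam depends on how reads it shares with another gene were counted, which is not given in the sources used here. These separations compare ranges of 2 libraries and carry no test.

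**Figure D1:**
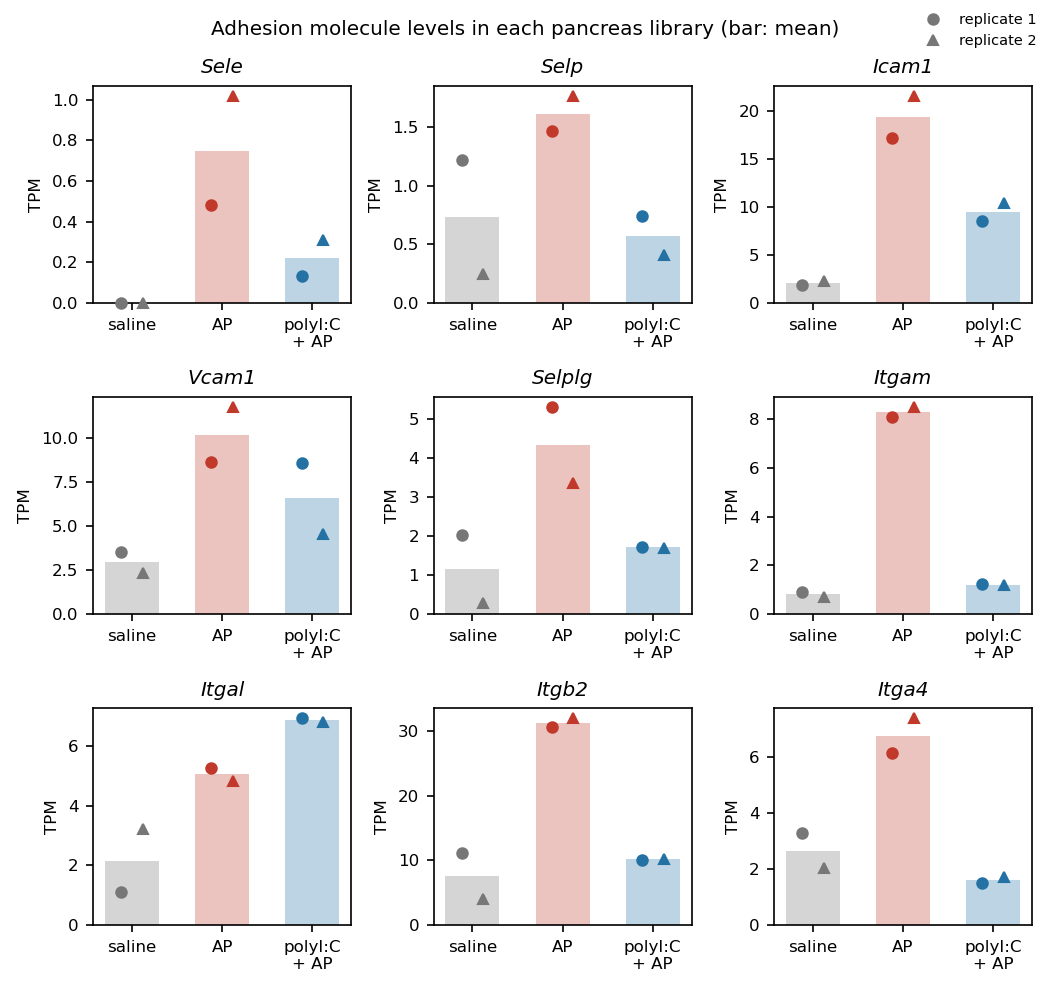
TPM (vertical axes, from 0) of the 9 adhesion molecules in the saline, AP and pretreated groups, with 1 point for each library and a bar for the mean of the 2 libraries. Itgam stood at 8.08 and 8.48 TPM in the AP libraries and at 1.23 TPM or lower in the other 4, whereas Itgal was highest in the pretreated libraries, at 6.92 and 6.79 TPM.

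Genes were tested where their mean over the 6 libraries reached 1 TPM, and 7 of the 9 adhesion molecules passed this filter. Sele and Selp did not. Itgam was below 1 TPM in both saline libraries and close to 1 TPM in the pretreated libraries, and its mean of 3.43 TPM came mostly from AP mice. Counts over the tested genes describe them and do not speak for all 9. A gene was called where the Benjamini-Hochberg adjusted p of limma was at most 0.05 and the fold change, on the scale of log2(TPM + 0.5), at least 2. This scale understates the change of genes with low values.

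Sele (ENSMUSG00000026582, GRCm38 chromosome 1, 164048234 to 164057677, plus strand) encodes E-selectin, which endothelium makes on activation. It was listed at 0 in both saline libraries, at 0.482 and 1.02 TPM in the AP libraries, and at 0.131 and 0.312 TPM in the pretreated libraries. These levels corresponded to 3 and 8 reads in AP mice and to 1 and 3 reads in pretreated mice. Both AP libraries were above all the others, but the counts were too small for a firm order. In each saline library alone, a count of 0 allows up to 3 reads, or 0.706 and 0.868 TPM, which is above AP replicate 1 and below AP replicate 2. With no filter on low values, AP against saline mice had an adjusted p of 0.11 by limma (unadjusted p = 0.039), and no fold is given against a group at 0. The difference between pretreated and AP mice was -0.77 on the log2 scale (SE 0.48, adjusted p = 0.64, limma).

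Selp (ENSMUSG00000026580, GRCm38 chromosome 1, 164115264 to 164150026, plus strand) encodes P-selectin, which endothelial cells and platelets store in granules. Its level was 1.22 and 0.251 TPM in the saline libraries, 1.46 and 1.76 TPM in the AP libraries, and 0.738 and 0.406 TPM in the pretreated libraries. The AP libraries were the highest, by a small margin over saline replicate 1, and the pretreated libraries lay within the range of the saline libraries, whose replicate 2 rested on an estimated 1.31 reads. Such estimates for single genes, Sele aside, lay up to 0.491 from a whole number in at least 1 library and are approximate. Without the filter, AP minus saline was 0.89 (SE 0.53, adjusted p = 0.30) and pretreated minus AP was -0.99 (SE 0.53, adjusted p = 0.57), on the log2 scale by limma. Neither passed, although the AP libraries did not overlap those of either other group.

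Icam1 (ENSMUSG00000037405, GRCm38 chromosome 9, 21015985 to 21028817, plus strand) encodes the endothelial ligand of the Itgb2 integrins and is also made by other cell types on inflammatory stimulation. It was measured at 1.88 and 2.31 TPM in the saline libraries, 17.2 and 21.5 TPM in the AP libraries, and 8.54 and 10.4 TPM in the pretreated libraries. The 3 groups did not overlap, with AP mice highest, pretreated mice between, and saline mice lowest. Icam1 rose in AP mice by 2.93 log2 units (SE 0.21, adjusted p = 0.00017) and was higher in pretreated than in saline mice by 1.94 (SE 0.21, adjusted p = 0.00078). Both calls held under each of the 17 alternatives, with adjusted p up to 0.014 and 0.018. The difference between pretreated and AP mice was -0.99 (SE 0.21, 95% interval -1.49 to -0.49) with an adjusted p of 0.092. It missed both criteria, that of the fold narrowly. Only voom on estimated reads called it (-1.05, adjusted p = 0.024; range of adjusted p over 17 alternatives 0.024 to 0.56).

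Vcam1 (ENSMUSG00000027962, GRCm38 chromosome 3, 116109949 to 116129688, minus strand) encodes the endothelial ligand of the Itga4 integrins. Its level was 3.55 and 2.36 TPM in the saline libraries, 8.63 and 11.7 TPM in the AP libraries, and 8.58 and 4.56 TPM in the pretreated libraries. Saline mice were lowest without overlap, whereas the libraries pretreated with polyI:C were far apart, replicate 1 standing next to AP replicate 1. Vcam1 rose in AP mice by 1.64 on the log2 scale (SE 0.33, adjusted p = 0.0078). The call was lost without saline replicate 2 (adjusted p = 0.066), AP replicate 1 (0.063) or AP replicate 2 (0.11), out of a range of 0.0054 to 0.11 over 17 alternatives. Neither pretreated minus AP (-0.64, SE 0.33, adjusted p = 0.46) nor pretreated minus saline (0.99, SE 0.33, adjusted p = 0.051) passed. The latter passed without pretreated replicate 2, at 1.42 (adjusted p = 0.046, out of 0.039 to 0.28).

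Selplg (ENSMUSG00000048163, GRCm38 chromosome 5, 113818536 to 113832644, minus strand) encodes the leukocyte ligand of the selectins. It was found at 2.03 and 0.294 TPM in the saline libraries, 5.31 and 3.36 TPM in the AP libraries, and 1.73 and 1.69 TPM in the pretreated libraries. AP mice were highest without overlap, and the pretreated libraries fell between the saline libraries, which differed widely, replicate 2 resting on an estimated 1.49 reads. AP minus saline was 1.74 on the log2 scale (SE 0.58, 95% interval 0.35 to 3.13) with an adjusted p of 0.053. It passed at an unadjusted p, at a pseudocount of 1 (adjusted p = 0.049), with the replicate number as a block (0.036) and without saline replicate 1 (0.015, with a difference of 2.58), out of 0.015 to 0.3 over 16 alternatives. Without saline replicate 2, the difference was 0.90 (adjusted p = 0.16). Pretreated minus AP was -1.10 (SE 0.58, adjusted p = 0.48) and pretreated minus saline 0.64 (SE 0.58, adjusted p = 0.43). The latter took the opposite sign, -0.19, without saline replicate 2.

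Itgb2 (ENSMUSG00000000290, GRCm38 chromosome 10, 77530252 to 77565708, plus strand) encodes the common beta chain of the leukocyte integrins. Its level was 11.1 and 3.97 TPM in the saline libraries, 30.6 and 32.0 TPM in the AP libraries, and 10.1 and 10.2 TPM in the pretreated libraries. The AP libraries stood apart at the top, and the pretreated libraries lay inside the wide range of the saline libraries. Itgb2 rose in AP mice by 2.14 on the log2 scale (SE 0.41, adjusted p = 0.0064), a call lost without AP replicate 1 (adjusted p = 0.085) or AP replicate 2 (0.092, out of 0.0017 to 0.092). Pretreated minus AP was -1.58 (SE 0.41, 95% interval -2.55 to -0.60) with an adjusted p of 0.15. With the saline libraries out of the fit, that adjusted p was 0.025, and it was 0.036 without saline replicate 1 and 0.037 without saline replicate 2, out of 0.013 to 0.63 over 17 alternatives. The saline libraries differed from each other more than the libraries of the other groups did. Pretreated minus saline was 0.57 (SE 0.41, adjusted p = 0.32), and it was 1.26 without saline replicate 1 (adjusted p = 0.0067) and -0.12 without saline replicate 2 (adjusted p = 0.55, out of 0.0067 to 0.83).

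Itgam (ENSMUSG00000030786, GRCm38 chromosome 7, 128062640 to 128118491, plus strand) encodes the alpha chain that neutrophils, monocytes and macrophages pair with Itgb2. It was measured at 0.923 and 0.681 TPM in the saline libraries, 8.08 and 8.48 TPM in the AP libraries, and 1.23 and 1.19 TPM in the pretreated libraries. The AP libraries stood far above the other 4, and the pretreated libraries were just above the saline libraries without overlap. Itgam rose in AP mice by 2.76 on the log2 scale (SE 0.26, adjusted p = 0.00045), under each of 16 alternatives with adjusted p up to 0.026. It was reduced in pretreated against AP mice with a difference of -2.36 on the log2 scale (SE 0.26, adjusted p = 0.019). That call was lost with a prior variance following the mean log2 value (adjusted p = 0.094) and without AP replicate 1 (0.27), AP replicate 2 (0.30), pretreated replicate 1 (0.091) or pretreated replicate 2 (0.21), out of 0.0041 to 0.30, while the difference stayed between -2.77 and -2.07. Pretreated minus saline was 0.40 (SE 0.26, 95% interval -0.23 to 1.03, adjusted p = 0.28), and 0.10 after scaling (adjusted p = 0.82, out of 0.11 to 0.82).

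The Itgam level is uncertain in another way. Itgam lies at chromosome 7, 128062640 to 128118491 (GRCm38), and shares 3352 of the 5213 stretches of 100 bases in its transcripts (64.3%) with Gm49368, a protein-coding gene annotated on the same strand from 128062683 to 128128160. Reads from these stretches can belong to either gene, and how the counting treated them is not given in the sources used here. None of the other 8 genes shared such a stretch with a gene on the same strand. On the opposite strand, Icam1 shared 9.67% of its stretches with Gm47079, Selp 7.73% with Gm16548 and Itga4 6.56% with Cerkl; the labels name stranded library kits, but the strand setting of the counting is not given, so these reads may be mixed.

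Itgal (ENSMUSG00000030830, GRCm38 chromosome 7, 127296260 to 127335138, plus strand) encodes the alpha chain that lymphocytes and other leukocytes pair with Itgb2. Its level was 1.09 and 3.22 TPM in the saline libraries, 5.26 and 4.83 TPM in the AP libraries, and 6.92 and 6.79 TPM in the pretreated libraries. The groups did not overlap, and here the pretreated libraries were the highest. Itgal passed in AP against saline mice at the edge of the threshold, with a difference of 1.19 on the log2 scale (SE 0.39, adjusted p = 0.049). Of 16 alternatives, 12 did not call it, among them scaling (0.83, adjusted p = 0.17). The call was also lost without saline replicate 1 (difference 0.58), either AP library (1.13 and 1.25) or either pretreated library (1.19 in both). It was higher in pretreated than in saline mice by 1.60 (SE 0.39, adjusted p = 0.018), and 8 of 16 alternatives did not call this. The calls lost included those under scaling (1.21, adjusted p = 0.071) and without saline replicate 1 (0.98, adjusted p = 0.021), either AP library (0.081 and 0.078) or either pretreated library (0.14 and 0.13). Pretreated minus AP was 0.41 (SE 0.39, 95% interval -0.52 to 1.34, adjusted p = 0.72), positive under each of 16 alternatives but not called by any.

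Both alpha chains pair with Itgb2, and their balance can be read within each library. The ratio of the Itgal level to the Itgam level was 1.18 and 4.72 in the saline libraries, 0.652 and 0.569 in the AP libraries, and 5.61 and 5.72 in the pretreated libraries. As listed, Itgam was the higher of the pair in both AP libraries, and Itgal in the other 4. Which of them is higher in some libraries may depend on how the reads shared by Itgam and Gm49368 were counted, most closely in saline replicate 1. How far this would move the larger ratios, in saline replicate 2 and the pretreated libraries, was not tested. The saline ratios rested on an estimated 6.77 and 4.06 reads for Itgam, and the ratio was not tested.

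Itga4 (ENSMUSG00000027009, GRCm38 chromosome 2, 79255426 to 79333123, plus strand) encodes the alpha chain that binds the product of Vcam1 on lymphocytes and monocytes. It was found at 3.28 and 2.02 TPM in the saline libraries, 6.13 and 7.38 TPM in the AP libraries, and 1.49 and 1.72 TPM in the pretreated libraries. AP mice were highest and pretreated mice lowest, just below the saline libraries, with no overlap between groups. Itga4 was raised in AP mice by 1.23 on the log2 scale (SE 0.24, adjusted p = 0.0067), a call lost under scaling (0.85), without saline replicate 2 (0.93, adjusted p = 0.023), AP replicate 1 (0.059) or AP replicate 2 (0.094, out of 0.0065 to 0.094). It was reduced in pretreated against AP mice, with a difference of -1.78 (SE 0.24, adjusted p = 0.027). Of 16 alternatives, 7 did not call it, among them no filter on low values (adjusted p = 0.058), both other priors (0.13 and 0.14) and the absence of AP replicate 1 (0.28), AP replicate 2 (0.35), pretreated replicate 1 (0.18) or pretreated replicate 2 (0.25, out of 0.0043 to 0.35), and the difference stayed between -2.09 and -1.57. Pretreated minus saline was -0.55 (SE 0.24, adjusted p = 0.11). It was -0.92 after scaling (adjusted p = 0.029, out of 0.029 to 0.35), under a fold of 2, and ran from -0.99 to -0.26 over 16 alternatives.

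In AP against saline mice, which asks what pancreatitis changes, 6 of the 7 tested adhesion molecules were raised. They were Icam1, Itgam, Itgb2, Vcam1, Itga4 and Itgal, where 18.2% of all 16814 tested genes were raised. None of the 7 was reduced, where 4.03% of all were. At an unadjusted p of at most 0.05, limma gave 7 raised and again 0 reduced, where 3406 and 806 of all tested genes were. The fold limit of 2 was kept here and in every such count. The median difference of the 7 was 1.74 on the log2 scale, against 0.45 over all tested genes. With no filter, the median was 1.64 over all 9 adhesion molecules and 0.33 over 22556 genes. After median-of-ratios scaling between libraries, the median of all genes was 0.05, the adhesion median 1.44, and 4 adhesion molecules were raised (Icam1 by 2.55, Itgam by 2.44, Itgb2 by 1.74 and Vcam1 by 1.25), beside 9.33% of all genes. Over all genes, scaling moved the calls from 3053 raised and 677 reduced (81.8% raised) to 1564 raised and 1226 reduced (56.1% raised). Without AP replicate 1, or without AP replicate 2, 2 adhesion molecules were called.

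In pretreated against AP mice, which asks what pretreatment changes in pancreatitis, 2 of the 7 were reduced (Itgam and Itga4), where 0.404% of all tested genes were reduced. In the other direction, 0 were raised, where 0.44% of all were. At an unadjusted p of at most 0.05, limma gave 3 reduced and 0 raised, where 401 and 327 of all 16814 tested genes were. Voom gave 4 reduced and 0 raised, beside 215 and 113 of all genes. The median difference of the 7 was -1.10 on the log2 scale against 0.04 over all tested genes, and without the filter it was -0.99 over the 9 against 0.03 over all. Without any 1 of the 4 libraries compared, 0 adhesion molecules were called, and all differences kept their sign. Of all genes, 53 were called without pretreated replicate 1 and 0 without each of the other 3, so the loss was not limited to the adhesion molecules; a lone library is then assumed to vary like the other groups. Scaling moved these differences little (-2.34 for Itgam and -1.77 for Itga4).

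In pretreated against saline mice, 2 of the 7 were raised (Icam1 and Itgal), where 16.9% of all tested genes were raised, and 0 were reduced, where 2.97% of all were. At an unadjusted p of at most 0.05 limma gave the same counts, 2 and 0, where 3837 of all 16814 tested genes passed, 3223 of them raised. Under each of 17 alternatives, 0 of the 7 were reduced. The median of the 7 was 0.64 on the log2 scale beside 0.48 over all tested genes. After scaling, only Icam1 was called (1.55), beside 7.9% of all genes raised, and the medians were 0.34 and 0.05; over all genes, the raised share of calls moved from 85.0% to 57.4%. Without AP replicate 1, AP replicate 2 or pretreated replicate 1, 1 adhesion molecule was called. Any pair of the 3 comparisons shares the libraries of 1 group (AP, saline or pretreated mice), so their values are not independent of each other.

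**Figure D2:**
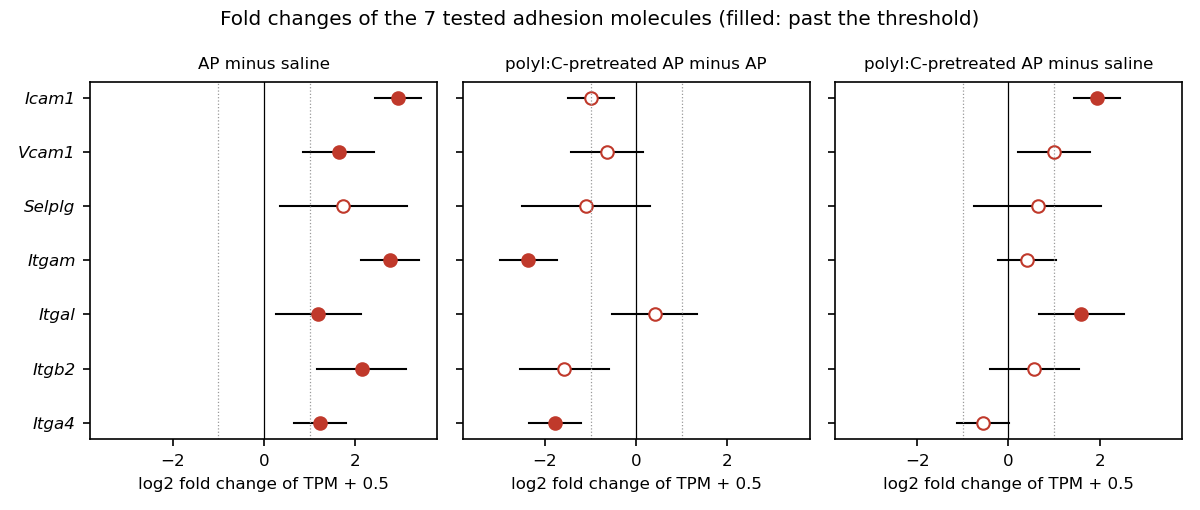
Log2 fold change of TPM + 0.5 (horizontal axes) with its 95% interval for the 7 tested adhesion molecules (rows) in the 3 comparisons, from limma with 2 libraries in each group; filled points passed the threshold and dotted lines mark a fold change of 2. Differences of AP minus saline ran from 1.19 (Itgal) to 2.93 (Icam1), and in pretreated minus AP those of Itgam (-2.36) and Itga4 (-1.78) were called.

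Genes with the most similar pattern were sought by the smallest root mean square difference of log2 values, centred for each gene, over the 6 libraries. Itgam was closest to Sirpb1c (0.18), Atp8b4 (0.18) and Cyth4 (0.21), and Itga4 to Fmnl1 (0.16), Pik3r5 (0.18) and Fcgr2b (0.18). For Itgb2 the nearest genes were Pla2g7 (0.13), Sh2b2 (0.14) and Laptm5 (0.15), and for Selplg they were Cysltr1 (0.14), Fam171b (0.15) and Cd180 (0.19). Itgal was closest to Rhov (0.10), Ptges3l (0.10) and Snx15 (0.14). The pattern of Icam1 was nearest to Gm7665 (0.12), Hist1h4m (0.16) and Tmsb4x (0.16), and that of Vcam1 to Zfp941 (0.15), C1qa (0.15) and Dse (0.17). Sele was nearest to Icosl (0.13), Ripply3 (0.13) and Cln8 (0.16), and Selp to Arhgef6 (0.11), Themis2 (0.13) and Clec4b1 (0.15). No test was made of these likenesses.

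Markers of the cells that carry these molecules were summed in each library. All 7 pan-leukocyte markers were listed and none was at 0; their sum was 51.7 and 59.9 TPM in the saline libraries, 209 and 299.9 TPM in the AP libraries, and 58.9 and 60.2 TPM in the pretreated libraries, with Cd53 the most abundant. They were highest in both AP libraries, where Itgb2, Itgam and Itga4 were highest. Of them, 6 were raised in AP against saline mice, beside 18.2% of all tested genes, and 4 after scaling, beside 9.33%. In pretreated against AP mice, 2 of the 7 were reduced, beside 0.404% of all tested genes, and all 7 at an unadjusted p of at most 0.05, where 401 of the 16814 tested genes were, with a median difference of -1.86 on the log2 scale. Itgb2 per unit of this sum was 0.214 and 0.0662 in the saline libraries, 0.147 and 0.107 in the AP libraries, and 0.171 and 0.170 in the pretreated libraries. Relative to these markers, Itgb2 in both AP libraries lay within the range of the saline libraries and below the pretreated libraries. The part of leukocyte number in the result was not tested.

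All 13 monocyte and macrophage markers were listed, none at 0, and their sum was 741 and 477 TPM in the saline libraries, 2784 and 3227 TPM in the AP libraries, and 821 and 679.7 TPM in the pretreated libraries. Lyz2 was the most abundant in the saline and AP libraries, at 444 and 307 TPM and 1891 and 2118 TPM. In the pretreated libraries, Cd14 (216 and 209 TPM) was above Lyz2 (203 and 119 TPM). Cd14 was at 218 and 222 TPM in the AP libraries. Its pretreated minus AP difference was -0.05 on the log2 scale (adjusted p = 0.89, limma), against -3.68 for Lyz2. Of the 13, 10 were raised in AP mice, beside 18.2% of all tested genes, and 9 after scaling, beside 9.33%. With polyI:C pretreatment, 5 were reduced, beside 0.404% of all, and 8 at an unadjusted p of at most 0.05, where 401 of the 16814 tested genes were. Of 13 neutrophil markers, 10 were listed (Ly6g, Mpo and Ngp were not analysed here), with sums of 18.2 and 5.80 TPM, 73.0 and 64.5 TPM, and 45.4 and 23.2 TPM. Retnlg was the most abundant in the AP libraries (35.4 and 28.0 TPM) and S100a9 in the pretreated libraries (19.4 and 10.0 TPM). Elane was at 0 in both saline and both AP libraries. Of 7 tested neutrophil markers, 3 were raised in AP mice, beside 18.2% of all tested genes, and 1 after scaling, beside 9.33%. Of these 3, Mmp8 was at 0 in both saline libraries and passed the filter through its level in AP mice. In pretreated against AP mice, 0 of the 7 were reduced by limma, beside 0.404% of all tested genes. At an unadjusted p of at most 0.05, 2 were reduced, where 401 of the 16814 tested genes were. Those 2 were Retnlg (-2.998 on the log2 scale) and Csf3r (-1.07, also the median of the 7). Both were higher in both AP libraries than in both pretreated libraries, as was Itgam. S100a8 stood at 6.18 and 9.40 TPM in the AP libraries and 11.6 and 6.16 TPM in the pretreated libraries, which overlapped. Its difference was 0.14 (SE 1.16, adjusted p = 0.9, limma), the only positive one among the 7 tested markers. The part of these cells in the Itgam result was not tested.

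The lymphocyte lists gave another picture beside Itgal. Of 6 NK cell markers, summing to 3.07 and 0.882 TPM, 1.67 and 2.24 TPM, and 30.7 and 50.8 TPM, only Gzma was tested, and it was listed at 0 in both saline and both AP libraries and at 26.9 and 47.0 TPM in the pretreated libraries. Other defining NK genes had low levels. Klrb1c was at 0 in both saline libraries, 0.192 and 0.0760 TPM in the AP libraries, and 0.705 and 0.934 TPM in the pretreated libraries. Eomes was at 0 in the saline and AP libraries and at most 0.127 TPM in the pretreated libraries, and levels this low rest on too few reads for an order. In the other 3, the pretreated libraries were not both above all the others. Ncr1 was at 0.731 and 0 TPM in saline, 0 and 0.987 TPM in AP, and 1.42 and 0.970 TPM in pretreated libraries. Its mean was highest in pretreated mice, at 1.20 TPM against 0.493 TPM in AP and 0.365 TPM in saline mice. Klrk1 was higher in both AP than in both pretreated libraries, and Nkg7 was highest in saline replicate 1. The 9 T cell markers summed to 11.4 and 9.52 TPM, 5.86 and 12.8 TPM, and 6.62 and 6.50 TPM. Lck was the highest by its mean over the 6 libraries, with Cd5 above it in both saline libraries. Cd3e was at 0.349 TPM or lower in every library, and only 3 of the 9 reached the mean needed for a test. The 6 B cell markers summed to 14.2 and 16.8 TPM, 6.93 and 49.1 TPM, and 10.3 and 2.74 TPM, with Cd79b the highest by its mean, and set AP replicate 2 apart from AP replicate 1. Itgal stood at 5.26 TPM in AP replicate 1 and 4.83 TPM in AP replicate 2. The parts of Gzma-expressing cells, T cells and B cells in the Itgal result were not tested.

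All 14 endothelial markers were listed, none at 0, and their sum was 197 and 126 TPM in the saline libraries, 195 and 196 TPM in the AP libraries, and 235 and 156 TPM in the pretreated libraries, with Plvap the most abundant. Of the 14, limma called 0 in each of the 3 comparisons, and 0 at an unadjusted p of at most 0.05 with the fold limit kept. Of all 16814 tested genes, 3730 passed in AP against saline, 142 in pretreated against AP and 3338 in pretreated against saline mice. At an unadjusted p these counts were 4212, 728 and 3837. Esam was higher in pretreated than in saline mice with an adjusted p of 0.02, under a fold of 2. The median difference of AP minus saline was 0.04 before scaling and -0.38 after it. The groups overlapped in the endothelial sum, unlike in Icam1. It was lower in replicate 2 than in replicate 1 of the pretreated group, as was Vcam1, and its part in the spread of Vcam1 was not tested. The 6 platelet markers summed to 33.2 and 12.2 TPM, 77.9 and 49.3 TPM, and 12.8 and 13.7 TPM, of which Pf4 made up 69.9 and 39.8 TPM in the AP libraries. The other platelet markers were divided. Ppbp was at 0 and 0.778 TPM in the saline libraries, 4.32 and 3.42 TPM in the AP libraries, and 0.705 and 1.40 TPM in the pretreated libraries. It was raised in AP mice, but passed the filter through its level there. After scaling, no platelet marker was raised and 1 was reduced, where 9.33% of all genes were raised and 1226 of 16755 reduced. Itga2b had its highest level in AP replicate 2. Going the other way, Gp1ba was at 4.22 and 2.92 TPM in the saline libraries and 1.26 and 0.998 TPM in the AP libraries. Gp9 was at 0 in both AP libraries and in saline replicate 1. It was at 1.91 TPM in saline replicate 2 and at 1.30 and 1.38 TPM in the pretreated libraries. Gp1bb was at 0 in 5 libraries. The part of platelets in the level of Selp was not tested.

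**Figure D3:**
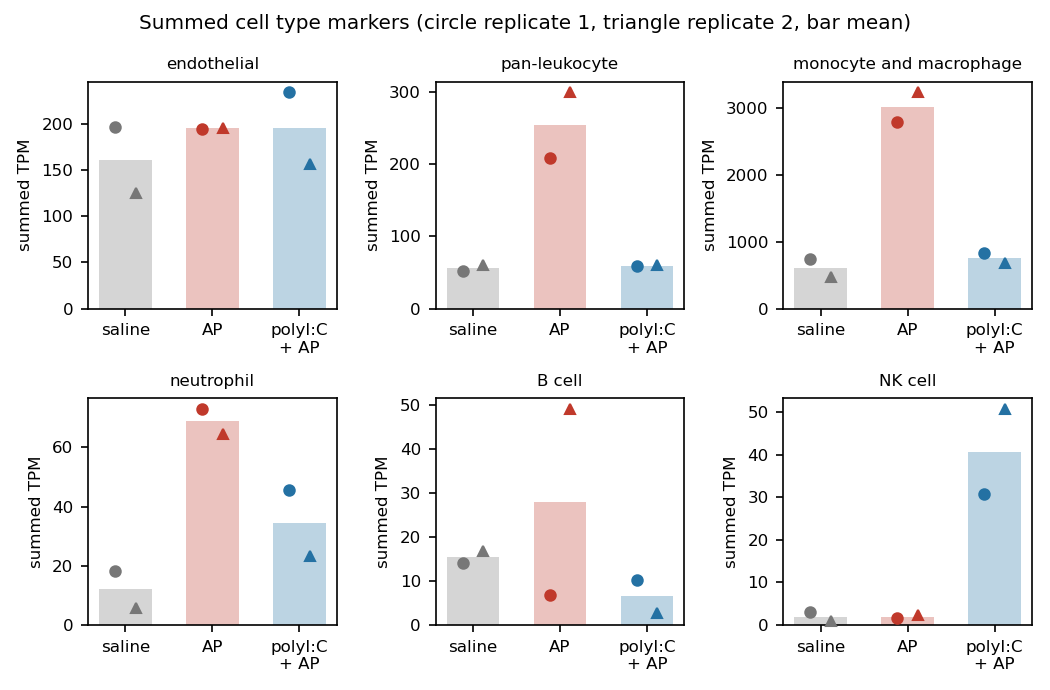
Summed TPM (vertical axes, from 0) of 6 marker lists in the saline, AP and pretreated groups, with 1 point for each library and a bar for the mean of 2 libraries. The pan-leukocyte sum was 209 and 299.9 TPM in AP mice and at most 60.2 TPM in the other 4 libraries, the NK cell sum in pretreated mice, 30.7 and 50.8 TPM, was mostly Gzma (26.9 and 47.0 TPM), and the endothelial sum ran from 126 to 235 TPM without separating the groups.

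Other tissue lists bear on where Icam1 and Vcam1 may be made, since stromal and epithelial cells can express both. The 7 fibroblast and stellate cell markers, led by Dcn, summed to 851 and 629.9 TPM, 797 and 969 TPM, and 829 and 702 TPM. Of them, 4 were raised and 0 reduced in AP mice by limma, where 18.2% of all tested genes were raised and 4.03% reduced. The counts were the same at an unadjusted p of at most 0.05, where 3406 of all 16814 tested genes were raised and 806 reduced. After scaling, 3 were raised and 1 reduced, beside 9.33% of all genes raised and 1226 of 16755 reduced. Dcn was lower in AP than in saline mice by a difference of -0.73 on the log2 scale (adjusted p = 0.033), under a fold of 2. The 5 mesothelial markers summed to 92.7 and 104 TPM, 1044 and 1123 TPM, and 795 and 827 TPM, with most of the AP and pretreated sums from Krt19, which duct cells also express. The 5 listed acinar markers summed to 1056 and 872 TPM, 342 and 291 TPM, and 643 and 662 TPM. Of these, 3 were reduced in AP mice, beside 4.03% of all tested genes. The same 3 were raised with polyI:C pretreatment, beside 0.44% of all. The parts of these cells in the levels of Icam1 and Vcam1 were not tested.

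The adhesion pathway beyond the 9 genes was followed in 68 genes, of which 65 were listed and 61 tested. In AP against saline mice, 23 of the 61 were raised and 2 reduced, with a median difference of 0.83 on the log2 scale, where 18.2% of all tested genes were raised, 4.03% reduced and the median was 0.45. After scaling, 10 were raised and 4 reduced, with a median of 0.44. Over all genes after scaling, 9.33% were raised and 1226 of 16755 reduced, with a median of 0.05. Of the other integrin subunits, 8 of 14 tested were raised, and of the genes of integrin activation and anchoring 8 of 16 (3 and 4 after scaling). Of the remaining lists, 2 of 8 selectins and selectin ligands, 3 of 10 immunoglobulin-type and junction molecules, 1 of 7 genes of selectin ligand glycosylation and 1 of 6 endothelial granule and transport genes were raised, or 1, 1, 0 and 1 after scaling. Of the glycosylation genes, 2 of 7 were reduced, before and after scaling. No test set these lists against all tested genes. In pretreated against AP mice, 2 of the 61 were reduced and 0 raised by limma, where 0.404% of all tested genes were reduced and 0.44% raised. At an unadjusted p of at most 0.05, 7 were reduced and 0 raised, where 401 and 327 of all 16814 tested genes were.

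The largest rises in AP mice were those of Procr, Itga2 and Cd44. Procr, the endothelial protein C receptor, was at 7.31 and 6.90 TPM in the saline libraries, 299.8 and 246 TPM in the AP libraries, and 127 and 105 TPM in the pretreated libraries, while the endothelial markers summed to 126 to 235 TPM. It rose in AP mice by 5.16 log2 units (adjusted p = 1.3e-05) and was reduced with polyI:C pretreatment, with a difference of -1.23 (SE 0.14, adjusted p = 0.02), a call kept under 7 of 16 alternatives and lost without any 1 of the 6 libraries. Itga2, a collagen receptor subunit, was at 1.63 and 2.00 TPM, 31.3 and 37.7 TPM, and 29.3 and 29.6 TPM, and Cd44, a hyaluronan receptor that can also bind selectins, at 3.83 and 2.55 TPM, 43.6 and 44.6 TPM, and 32.5 and 32.6 TPM. Both were raised in AP mice under each of 16 alternatives, and pretreated minus AP was -0.22 (adjusted p = 0.58) and -0.43 (adjusted p = 0.33).

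Fermt3, which activates integrins in blood cells, was also highest in both AP libraries. It was at 11.9 and 13.0 TPM in the saline libraries, 36.2 and 45.6 TPM in the AP libraries, and 15.6 and 8.56 TPM in the pretreated libraries. It was raised in AP mice by 1.67 log2 units (adjusted p = 0.0034; 0.069 without AP replicate 2) and reduced with polyI:C pretreatment, with a difference of -1.77 (SE 0.27, adjusted p = 0.043), which 4 of 16 alternatives called and which was lost without any 1 of the 6 libraries. The genes reduced in AP mice before scaling were Chst2 and Gcnt1, enzymes that build selectin ligands. Chst2 was at 444 and 422 TPM, 133 and 101 TPM, and 131 and 142 TPM, and Gcnt1 at 38.9 and 41.2 TPM, 14.0 and 13.1 TPM, and 13.4 and 9.61 TPM, and both calls held under each of 16 alternatives. Glycam1, a selectin ligand of lymph node vessels, was at 14.8 TPM in saline replicate 2, 17.8 TPM in AP replicate 2 and 1.83 TPM or lower in the other 4 libraries; it was named after its values were seen.

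Stretches of 250 bases upstream of the annotated start were taken from RefSeq (GRCm38.p6) for 5 of the 9 genes, Icam1, Sele, Selp, Itgam and Itga4; Vcam1, Selplg, Itgb2 and Itgal were not matched. Both strands were searched for the NF-kappaB consensus, found in 7.25% of all 32851 promoters of the same length. Also searched were GAAA followed by any 2 bases and GAAA, a motif of interferon-responsive elements (2.98%), and GAGGAA, the core bound by PU.1 (23.3%). The last was TGANTCA with any middle base, a pattern wider than the AP-1 motif that it takes in (6.75%). The Itgam stretch held GAGGAA at 2 places, the Sele stretch held GAGGAA and TGANTCA at 1 place each, and the Selp stretch held TGANTCA at 1 place. The TGANTCA matches read TGACTCA in Sele and TGATTCA in Selp. No match to the patterns as searched was found in the Icam1 and Itga4 stretches. The letters of the NF-kappaB pattern are not given here, and other forms of that site were not searched. The absence of a match therefore says nothing about other forms of a site or about the binding of a factor. The stretches of Icam1, raised in AP mice under each alternative, and of Itgam and Itga4, reduced with polyI:C pretreatment, are given for the plus strand, 5′ to 3′, with GAGGAA or its reverse complement in capitals. They lie at chr9:21015690-21015939, chr7:128062390-128062639 and chr2:79255176-79255425.
Icam1: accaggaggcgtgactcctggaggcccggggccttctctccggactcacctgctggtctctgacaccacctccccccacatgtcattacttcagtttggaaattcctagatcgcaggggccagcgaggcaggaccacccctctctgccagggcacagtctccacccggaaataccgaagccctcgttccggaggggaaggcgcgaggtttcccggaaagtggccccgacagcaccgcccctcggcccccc
Itgam: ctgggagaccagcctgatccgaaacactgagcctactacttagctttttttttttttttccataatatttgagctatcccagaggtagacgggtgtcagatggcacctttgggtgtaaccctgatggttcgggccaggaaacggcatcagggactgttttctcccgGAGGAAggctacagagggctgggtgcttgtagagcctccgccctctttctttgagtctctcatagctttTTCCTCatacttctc
Itga4: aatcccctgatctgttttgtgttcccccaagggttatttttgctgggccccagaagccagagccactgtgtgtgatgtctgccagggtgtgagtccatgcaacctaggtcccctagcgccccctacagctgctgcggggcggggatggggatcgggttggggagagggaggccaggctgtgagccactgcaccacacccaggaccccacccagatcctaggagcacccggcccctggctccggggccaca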

How the data were processed

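The values are TPM as the authors deposited them, after Trimmomatic, STAR on mm10 and htseq-count. The values summed to 1000000 in each library; the step to TPM and the annotation are not given in the sources used here. Symbols, exon lengths and coordinates were matched to 22490 of the 22556 identifiers in GENCODE M21. The members and lists were chosen with earlier results of these data known. Genes averaging 1 TPM or more were tested with limma 3.58.1 in R 4.3.3 on log2(TPM + 0.5), with 1 coefficient per group over all 6 libraries and a prior variance following mean TPM times exon length, and p-values were adjusted over all tested genes. The study's methods used DESeq2 on counts, which TPM do not allow. On simulated data with a small spread between libraries most changed genes were recovered, with a share of false calls above the nominal one, and with a larger spread none were recovered. Reads were estimated from the spacing of low values, of which 51.2% to 62.2% lay within 0.1 of a whole multiple, against 19.3% to 20.5% with lengths shuffled. Named genes were the 9 members, their 3 nearest patterns, other adhesion genes past the threshold with polyI:C or with the 3 largest changes each way in AP mice, and the most abundant gene of each marker list. Alternatives were other pseudocounts, filters, scaling, priors and tests, a replicate block and leaving out each library.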

Additional observations from a re-analysis of the deposited data

How the results depend on the processing

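Of 345 values of member fold changes under alternatives, 290 kept their direction and side of the threshold, 41 lost a call, 12 gained one and 2 reversed. Both reversals came without saline replicate 2 in pretreated against saline mice, where leaving out 1 library gave -0.19 to 1.48 for Selplg and -0.12 to 1.26 for Itgb2 on the log2 scale. In AP against saline mice, 6 members passed, and a mean of at least 5 TPM left 3 because fewer members were tested. Leaving out 1 library gave 2 to 6 members, and 2399 to 3648 genes in place of 3730. In pretreated against AP mice, 2 members and 142 genes passed. The counts were 1 and 90 with no filter, 0 and 28 with a prior following the mean log2 value, 1 and 41 with 1 prior for all genes, and 4 and 328 with voom, and 728 genes passed at an unadjusted p. A mean of at least 5 TPM left 0 members, and leaving out 1 library gave 0 to 3 members and 0 to 80 genes. In pretreated against saline mice, 2 members passed, against 1 with a mean of at least 5 TPM, scaling, 1 prior for all genes or only the 4 libraries compared, and 1 to 2 when 1 library was left out. With the replicate number as a block, 7, 2 and 2 members passed in the 3 comparisons, and 124 genes in pretreated against AP mice. Libraries sharing a number did not deviate together across genes, with correlations of 0.00750 between saline and AP, -0.00385 between saline and pretreated, and 0.0351 between AP and pretreated mice. Where a group was left with 1 library, it was assumed to vary like the other groups. Apart from the stricter filter, the causes of these changes were not tested. Depth limits Sele, Selp, Selplg and Itgam most in saline mice.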
